A study of Rattus norvegicus with 22 samples.

Results

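Mki67, Top2a, Kif4a and Aurkb are transcribed mainly in cells that are replicating their DNA or dividing, and they were followed here through the cortex of rats with a penetrating ballistic-like brain injury (PBBI) or a sham operation. These 4 genes were chosen by name from the 32545 gene identifiers with deposited counts, of which 23572 had counts. Their symbols were taken from supplementary tables that pair 1822 identifiers with a name, mostly genes the study had called in the injured hemisphere, so the naming is not independent of the ipsilateral comparison. Other comparisons that use the ipsilateral PBBI samples share this limit. All 4 passed the filter on low counts in each comparison.

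The 22 samples came from 11 adult male rats whose strain is labelled Sprague-Daley, each of which gave cortex of the ipsilateral (right) and of the contralateral hemisphere. There were 6 PBBI rats, in which a probe with an inflatable balloon was driven into the right frontal cortex, and 5 sham rats, which had the same surgery except that no probe went in. Rats of both groups carried implanted EEG and EMG electrodes, and tissue was collected 24 h after the operation, which was the single time studied. Total counts per sample ran from 42085341 to 63412426, and levels are given as CPM (counts scaled to a common library size) corrected by TMM over all samples. The ipsilateral library of PBBI rat 85 stood apart, with a mean correlation to its own group of 0.835 against at least 0.933 in each of the other 21 libraries, and 5 libraries (3 of PBBI rats and 2 of a sham rat) had titles in another form than the rest. The labels give cortex as the tissue. Camkv and Mapt, the most abundant of 6 neuronal markers, averaged 270 and 261 CPM in ipsilateral PBBI cortex. They averaged 468 and 362 CPM in ipsilateral sham cortex. Cckbr, the least abundant, averaged 5.98 CPM in ipsilateral PBBI and 16.6 CPM in ipsilateral sham cortex. These markers do not show which part of the brain was taken.

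Mki67 encodes Ki-67, a protein that coats mitotic chromosomes and keeps them apart, and it is the usual stain for cycling cells. Top2a encodes DNA topoisomerase IIα, which untangles sister DNA strands before they separate. Kif4a encodes a kinesin that moves along chromosome arms and sets the length of the central spindle, and Aurkb encodes the kinase of the chromosomal passenger complex, which corrects faulty attachments of chromosomes to the spindle and drives cytokinesis. In the adult cortex most neurons no longer divide, whereas microglia, astrocytes, oligodendrocyte precursors, endothelial cells and immigrant immune cells can do so after injury. Bulk tissue does not show which cells carried the transcripts, and more cells of a type cannot be told apart from more RNA per cell.

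Genes of this kind are switched on late in the cell cycle through short promoter elements, among them CCAAT boxes bound by NF-Y and the CHR element (cell cycle genes homology region), written TTTGAA or TTCGAA. RefSeq promoters of assembly GRCr8, from 250 bases before to 50 bases after the gene's start, were matched by symbol to 3 of the 4 genes (Mki67, Top2a and Kif4a). They are shown because each holds both kinds of element. Both strands were searched for the CCAAT box, for both spellings of the CHR and for the E2F-like motif TTTNNCGC. The Top2a promoter held 4 CCAAT boxes, 1 TTTGAA and 1 TTCGAA, and its 250 bases upstream of the start, chr10:84473094-84473343 on the minus strand, follow in lower case with these elements in capitals.
Top2a upstream: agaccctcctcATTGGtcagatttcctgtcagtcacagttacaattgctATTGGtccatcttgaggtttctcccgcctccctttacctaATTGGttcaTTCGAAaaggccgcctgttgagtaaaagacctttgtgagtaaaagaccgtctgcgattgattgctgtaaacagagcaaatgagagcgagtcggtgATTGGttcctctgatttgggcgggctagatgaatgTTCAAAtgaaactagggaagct
The Mki67 promoter held 4 CCAAT boxes and 2 TTTGAA elements, 1 of which overlaps a CCAAT box by 1 base. The Kif4a promoter held 2 CCAAT boxes and 1 TTTGAA. The 30 bases around each TTTGAA, with the same elements in capitals, are at chr1:199952693-199952722 and chr1:199952675-199952704 (minus strand) for Mki67 and at chrX:69761868-69761897 (plus strand) for Kif4a.
Mki67 first element: ttagcgccagaaTTTGAAccgccgttttcg
Mki67 second element: ccgccgttttcgTTTGAATTGGgcgggcac
Kif4a element: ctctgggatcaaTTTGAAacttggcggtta
None of the 3 promoters held TTTNNCGC. Of all 33469 promoters in the RefSeq table, 37.5% held CCAAT, 18.3% TTTGAA, 1.69% TTCGAA and 4.92% TTTNNCGC. Of 83 promoters found for the 4 genes and 98 further genes of mitosis described later, 62.7%, 61.4%, 10.8% and 15.7% held them. The median GC content was 58.7% in those 83 promoters and 51.7% in all. These are matches of letters, and no binding was measured.

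The first comparison asked how far the 4 genes differed between PBBI and sham in the injured hemisphere. All 4 were higher in ipsilateral PBBI cortex, Mki67 about 19-fold, Top2a 11.4-fold, Aurkb 6.18-fold and Kif4a 2.61-fold by the edgeR fit. In each gene the lowest of 6 PBBI samples lay above the highest of 5 sham samples. For reference, 4.09% of the 16104 genes tested were called higher, and in 3.5% all PBBI samples lay above all sham samples. The number of genes called in either direction, 753, was 316 without sham rat 91 and 2186 without PBBI rat 85.

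Mki67 had between 170 and 883 counts in the 6 ipsilateral PBBI samples, which is 3.84 CPM at the lowest (rat 85), 9.90 at the median and 13.6 at the highest (rat 81). In the 5 ipsilateral sham samples it was at 0.719, 0.741, 0.321, 0.317 and 0.428 CPM (rats 82, 84, 86, 91 and 94), from 12 to 39 counts. Even the lowest PBBI sample was thus well clear of the sham group. The group means were 9.64 ± 3.39 CPM (SD, n = 6) and 0.505 ± 0.210 CPM (SD, n = 5), and the log2 fold change was 4.25 ± 0.42 (SE, edgeR adjusted p = 0.00094), the gene ranking 3 by p among all genes tested.

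Top2a followed Mki67 in the size of its difference. Its lowest, median and highest values in ipsilateral PBBI cortex were 10.8 CPM (rat 90), 16.3 CPM and 29.4 CPM (rat 96). The 5 sham samples were at 2.47, 1.79, 0.775, 0.919 and 1.71 CPM in the same order of rats. Means were 17.5 ± 7.09 CPM (SD, n = 6) and 1.53 ± 0.694 CPM (SD, n = 5), with a log2 fold change of 3.51 ± 0.41 (SE, edgeR adjusted p = 0.00133).

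Aurkb ran from 2.60 CPM (rat 85) through a median of 5.77 to 9.74 CPM (rat 96) in ipsilateral PBBI samples. The sham samples were at 0.479, 0.760, 0.962, 1.52 and 1.00 CPM. The groups did not overlap, and the log2 fold change was 2.63 ± 0.43 (SE, edgeR adjusted p = 0.00575). Group means were 5.85 ± 2.79 CPM (SD, n = 6) and 0.945 ± 0.383 CPM (SD, n = 5).

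Kif4a had the smallest difference. It ran from 3.55 CPM (rat 85) through 5.00 to 10.0 CPM (rat 96) in PBBI, against 3.19, 1.77, 1.76, 2.46 and 1.63 CPM in sham. The lowest PBBI sample was only just above the highest sham sample, that of rat 82. Means were 5.64 ± 2.30 CPM (SD, n = 6) and 2.16 ± 0.659 CPM (SD, n = 5), and the log2 fold change was 1.38 ± 0.33 (SE, edgeR adjusted p = 0.0328).

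The two-sided exact permutation test over rats gave p = 0.00216 for each of the 4 genes, the smallest value that 6 against 5 rats allow. The call for Kif4a was lost when any of 8 libraries was left out (PBBI rats 81, 88, 90 and 96 and sham rats 84, 86, 91 and 94), with edgeR adjusted p between 0.053 and 0.0964. It was also lost when the libraries with other title forms were left out (edgeR adjusted p = 0.0881). Those of Mki67, Top2a and Aurkb held in all of these fits.

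**Figure D1:**
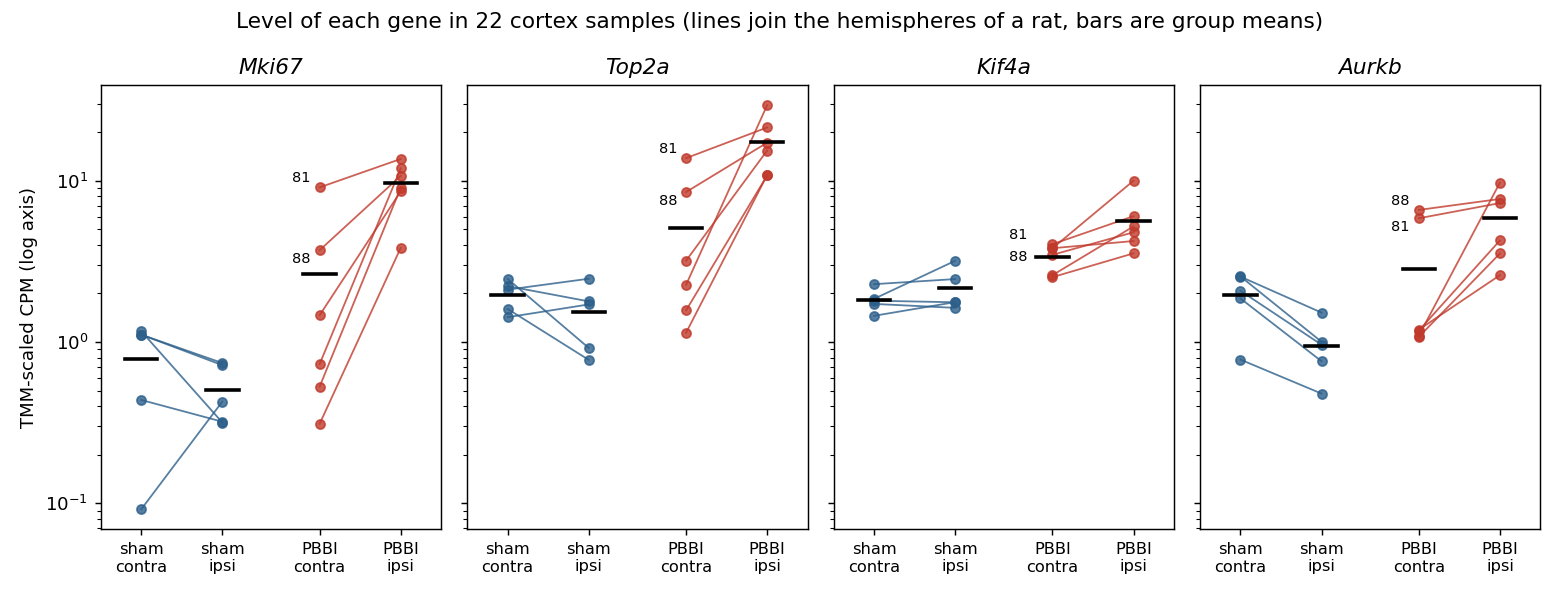
TMM-scaled CPM (log axis) of Mki67, Top2a, Kif4a and Aurkb in the contralateral and ipsilateral cortex of 5 sham rats (blue) and 6 PBBI rats (red), with a line joining the hemispheres of each rat and black bars at the group means. Every ipsilateral PBBI point lies above every ipsilateral sham point, and in contralateral PBBI cortex rats 81 and 88, which are named, are the highest for all 4 genes.

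Compared per kb of the gene length in the deposited table, the order of the 4 genes differed between the groups. In ipsilateral PBBI cortex Top2a was highest at 3.13 ± 1.27 CPM per kb (SD, n = 6), followed by Aurkb at 1.33 ± 0.634, Kif4a at 1.20 ± 0.488 and Mki67 at 0.98 ± 0.344, and the last 3 lay within each other's spread. In ipsilateral sham cortex Kif4a was highest at 0.458 ± 0.140 CPM per kb (SD, n = 5), then Top2a at 0.274 ± 0.124, Aurkb at 0.215 ± 0.0870 and Mki67 at 0.0511 ± 0.0213. In contralateral sham cortex Aurkb stood at 0.446 ± 0.165, Kif4a at 0.387 ± 0.0636 and Top2a at 0.352 ± 0.0779 CPM per kb (SD, n = 5), within each other's spread, and Mki67 at 0.0793 ± 0.0496.

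The contralateral comparison asked whether the uninjured hemisphere of PBBI rats differed from that of sham rats. No member was called (edgeR adjusted p = 1 for all 4), nor was any of the 15907 genes tested (0% called, with 366 genes at an unadjusted p under 0.05). DESeq2 called 3 and limma voom 1 of all genes, with none of the 4 among them. Kif4a came closest of the 4, at an adjusted p of 0.0577 by DESeq2 and 0.133 by limma voom. Levels were uneven among the injured rats. In 2 of the 6, rats 81 and 88, there were high levels of Mki67, Top2a and Aurkb, whereas the other 4 were at or near the sham level. Both libraries of rat 81 are among those with other title forms.

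Contralateral Mki67 was at 9.10 CPM in PBBI rat 81 and 3.71 CPM in rat 88, then at 1.47, 0.731, 0.530 and 0.311 CPM in rats 83, 96, 90 and 85. Sham samples were at 1.11, 1.11, 0.438, 1.17 and 0.0920 CPM (rats 82, 84, 86, 91 and 94), the last from only 4 counts. The level in rat 81 was within the range of the injured hemispheres, and 3 of 6 PBBI samples exceeded every sham sample. The log2 fold change was 1.76 ± 0.84 (SE, unadjusted edgeR p = 0.0553), with a two-sided exact permutation p of 0.273. Without rat 81 it was 0.79.

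Top2a followed the same order of rats, at 13.8, 8.51, 3.19, 2.26, 1.57 and 1.14 CPM in rats 81, 88, 83, 96, 90 and 85. The sham samples lay between 1.43 and 2.46 CPM. Its log2 fold change was 1.38 ± 0.58 (SE), and 0.76 without rat 81. The unadjusted edgeR p was 0.0328, and the two-sided exact permutation test gave p = 0.281.

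Contralateral Aurkb was at 6.59 CPM in rat 88 and 5.85 CPM in rat 81. The other 4 PBBI rats, at 1.08 to 1.19 CPM, were below 4 of the 5 sham rats, whose values were 0.778, 1.86, 2.08, 2.54 and 2.55 CPM. High and low PBBI samples therefore stood on either side of most sham samples. The log2 fold change was 0.53 ± 0.57 (SE, unadjusted edgeR p = 0.363), with a two-sided exact permutation p of 0.838. It was 0.18 without rat 81 and 0.09 without rat 88.

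Kif4a was the one member whose groups were separate in this hemisphere. Its 6 PBBI samples were at 4.04, 3.82, 3.81, 3.47, 2.60 and 2.53 CPM (rats 81, 88, 96, 83, 90 and 85) and its sham samples at 1.85, 1.45, 1.80, 2.28 and 1.72 CPM. The groups did not overlap, which held for 0.0943% of the 15907 genes tested, 15 in all. The log2 fold change was 0.89 ± 0.22 (SE), with an unadjusted edgeR p of 0.0014 that ranked 10 among all genes and an adjusted p of 1. The two-sided exact permutation test gave p = 0.00216, again the smallest possible. Kif4a and Top2a were at an unadjusted edgeR p under 0.05, as were 1.28% of all genes in the higher direction. The 95% intervals of the contralateral log2 fold changes were -0.05 to 3.57 for Mki67, 0.13 to 2.63 for Top2a, 0.41 to 1.37 for Kif4a and -0.69 to 1.75 for Aurkb.

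Markers of cell types also differed between PBBI and sham, some being higher in PBBI and others lower. In ipsilateral cortex the summed CPM of 6 leukocyte genes (Ptprc, Itgb2, Lcp1, Hcls1, Spi1 and Was) was 89.9 to 310 in PBBI and 27.3 to 53.6 in sham, and all 6 were called higher by edgeR. Of the genes tested, 4 of 6 were called higher for monocytes and macrophages, 2 of 4 for microglia, 1 of 4 for neutrophils, 1 of 4 for lymphocytes and 3 of 3 for vessels, and 2 of 6 neuronal genes were called lower. In astrocytes 1 of 3 was called higher and 1 lower, and in the oligodendrocyte lineage 1 of 2 was called lower. Names were taken mostly from the study's ipsilateral calls, so these shares are not independent of that comparison. Genes not analysed here, for want of a name, include Pecam1, Cldn5 and Flt1 (vessels), P2ry12 and Cx3cr1 (microglia), Aqp4, Gja1, Slc1a2 and Slc1a3 (astrocytes), Pdgfra, Cspg4, Olig1, Olig2 and Mbp (oligodendrocyte lineage), Rbfox3 and Snap25 (neurons) and Coro1a (leukocytes). The part of these cell types in the members' levels was not tested.

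The summed CPM of monocyte and macrophage genes was 203 to 1025 in ipsilateral PBBI and 95 to 232 in sham, that of neutrophil genes 20.0 to 247 and 9.65 to 54.1, that of microglial genes 297 to 814 and 105 to 231, and that of lymphocyte genes 3.44 to 12.0 and 0.534 to 2.52. Among the microglial genes Tyrobp averaged 159 CPM in ipsilateral PBBI and 51.8 CPM in sham, C1qb 124 and 49.6 CPM and C1qc 121 and 42.3 CPM, whereas Tmem119, a marker of resident microglia, averaged 16.7 CPM in PBBI and 31.6 CPM in sham (log2 fold change -0.92 ± 0.27 SE, edgeR adjusted p = 0.0799). Vessel genes summed to 37.5 to 77.7 CPM in PBBI and 12.9 to 23.7 CPM in sham, and 3 astrocyte genes, with Gfap by far the most abundant, to 1831 to 6846 and 386 to 947 CPM. Neuronal genes were at 520 to 826 and 929 to 1256 CPM, and the 2 oligodendrocyte genes named, Opalin and Mal, at 135 to 410 and 391 to 812 CPM. The defining markers Elane (neutrophils) and Pax5 (B cells) were at 0 in 14 of the 22 samples each, Siglech in 12, Ccr2 in 11 and Cxcr2 in 6. In the contralateral hemisphere of rats 81 and 88 leukocyte genes summed to 102 and 79.1 CPM. The other PBBI rats were at 39.3 to 73.6 CPM and sham rats at 30.6 to 61.5 CPM. Lymphocyte genes summed to 2.12 and 2.10 CPM, against 0.581 to 1.22 CPM and 0.510 to 1.05 CPM. Astrocyte genes, again mostly Gfap, summed to 4194 and 3143 CPM, against 549 to 1996 CPM and 509 to 1215 CPM. In rats 81 and 88 the monocyte and macrophage sum was 161 and 145 CPM and the neutrophil sum 23.9 and 15.7 CPM. Both sums were highest contralaterally in PBBI rat 85 (225 and 58.7 CPM), a rat with low members.

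Within the PBBI rats the injured hemisphere was compared with the other hemisphere of the same animal. All 4 genes were higher ipsilaterally in 6 of 6 rats, as were 10.7% of the 15973 genes tested. The ratio ran from 1.5-fold (rat 81) to 16.1-fold (rat 90) for Mki67, from 1.55-fold (rat 81) to 12.8-fold (rat 96) for Top2a, from 1.17-fold (rat 88) to 8.65-fold (rat 96) for Aurkb and from 1.11-fold (rat 88) to 2.61-fold (rat 96) for Kif4a. The smallest ratios were thus in the 2 rats with high contralateral levels. The two-sided exact sign-flip permutation test gave p = 0.0312 for each gene, the smallest that 6 rats allow.

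With no replicate block the edgeR fit called none of the 4 (0.18, 0.106, 0.156 and 0.372 adjusted p for Mki67, Top2a, Kif4a and Aurkb), while 2.97% of genes were called higher. That share rested on single rats, since the 568 genes called in either direction became 1 without rat 88 and 1149 without rat 85. With the rat as a replicate block, 6.68% of genes were called higher and Mki67 and Top2a were among them. This fit called 1646 genes in either direction, 263 without rat 90 and 3356 without rat 85. The log2 fold changes of Mki67 and Top2a were then 2.72 ± 0.54 (SE, edgeR adjusted p = 0.0213) and 2.28 ± 0.45 (SE, edgeR adjusted p = 0.0215). Those of Aurkb and Kif4a were 1.38 ± 0.40 (SE, edgeR adjusted p = 0.0658) and 0.69 ± 0.21 (SE, edgeR adjusted p = 0.0734). In the paired fit the call for Mki67 was lost without rat 88, 90 or 96 (edgeR adjusted p = 0.0567, 0.0739 and 0.0686) and that for Top2a without rat 90 or 96 (edgeR adjusted p = 0.0782 and 0.065). Without rat 85 Kif4a and Aurkb were called as well (edgeR adjusted p = 0.0395 and 0.0496).

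In sham rats, in which neither hemisphere was injured by a probe, no member was called between the hemispheres, nor was any gene (0% of 15747, with 47 at an unadjusted p under 0.05 by edgeR, and 0 called by DESeq2 or limma voom). Aurkb was lower ipsilaterally in 5 of 5 sham rats, as were 2.27% of genes. Its ipsilateral level was between 0.401 and 0.632 times the contralateral level of the same rat. The log2 difference was -1.06 ± 0.39 (SE) with an unadjusted edgeR p of 0.0184, and 0.14% of genes were lower at an unadjusted p under 0.05. With the replicate block the unadjusted edgeR p was 0.000881, ranking 2 among all genes, with an adjusted p of 0.999. The two-sided exact sign-flip permutation test gave p = 0.0625, the smallest that 5 rats allow.

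Mki67 was higher ipsilaterally in 1 of 5 sham rats, Top2a in 2 and Kif4a in 3. Their log2 differences were -0.63 ± 0.55, -0.36 ± 0.34 and 0.24 ± 0.26 (SE, edgeR adjusted p = 1 for each). The only sham rat with more Mki67 ipsilaterally was rat 94, whose contralateral value rests on 4 counts. Aurkb averaged 1.96 ± 0.726 CPM (SD, n = 5) in contralateral sham cortex and 0.945 CPM in ipsilateral sham cortex, so its ipsilateral fold is set against the lower of these levels.

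**Figure D2:**
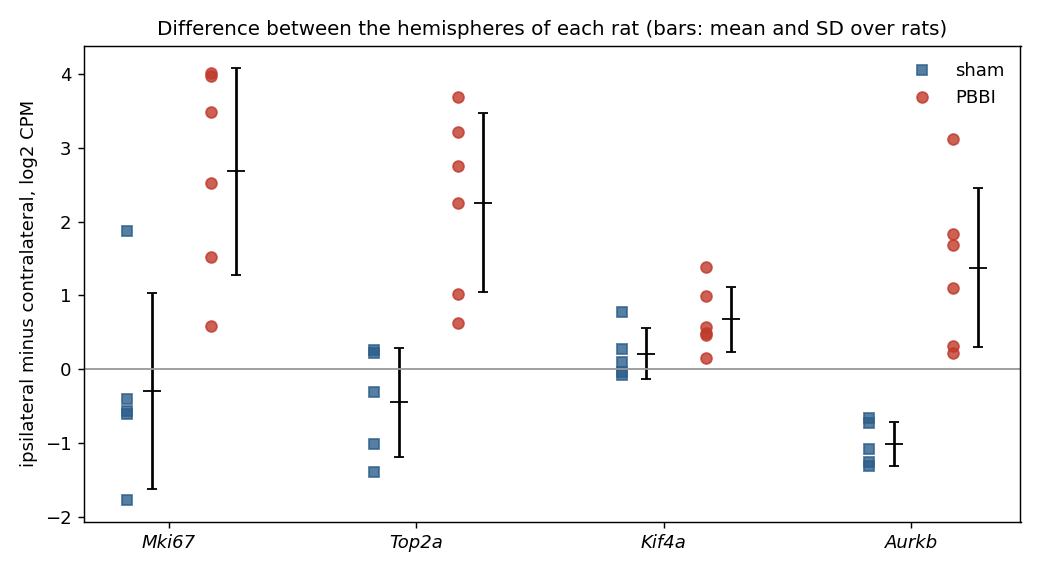
Ipsilateral minus contralateral log2 CPM within each sham rat (blue squares, n = 5) and each PBBI rat (red circles, n = 6), with the mean and SD beside the points. All PBBI points lie above 0 for each gene, and all sham points of Aurkb lie below 0.

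Whether the difference between PBBI and sham itself differed between the hemispheres was tested as the interaction of treatment and hemisphere. The mean within-rat difference in log2 CPM was 2.68 ± 1.4 in PBBI and -0.30 ± 1.33 in sham for Mki67 (SD, n = 6 and 5; two-sided exact permutation p = 0.013). It was 2.26 ± 1.21 against -0.45 ± 0.74 for Top2a (exact permutation p = 0.00649), 1.38 ± 1.08 against -1.01 ± 0.30 for Aurkb (exact permutation p = 0.00433) and 0.67 ± 0.44 against 0.21 ± 0.34 for Kif4a (exact permutation p = 0.0887). All PBBI differences exceeded all sham differences for Top2a and Aurkb, which held for 3.42% of the 16587 genes.

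The edgeR interaction without a block called none of the 4 (adjusted p = 0.324, 0.224, 0.806 and 0.257 for Mki67, Top2a, Kif4a and Aurkb), while 0.307% of genes were called higher. With the rat as a replicate block 2.95% were called higher, among them Mki67 (log2 interaction 3.16 ± 0.78 SE, edgeR adjusted p = 0.0408), Top2a (2.71 ± 0.58, edgeR adjusted p = 0.0229) and Aurkb (2.41 ± 0.48, edgeR adjusted p = 0.0197). Kif4a was at 0.47 ± 0.28 (edgeR adjusted p = 0.404). Over all genes 54 were called in either direction without the block (0 without PBBI rat 88, 255 without PBBI rat 83) and 708 with it (192 without sham rat 82, 1358 without PBBI rat 85). The paired calls of members depended on which rats entered. That for Mki67 was lost without any of 7 rats (sham 82, 84, 86 and 91, PBBI 88, 90 and 96), with edgeR adjusted p from 0.0529 to 0.114. That for Top2a was lost without any of 5 (sham 82, 84, 86 and 91, PBBI 90; 0.0517 to 0.0667 by edgeR) and that for Aurkb without sham rat 82 or 84 (0.0504 and 0.0605 by edgeR).

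**Figure D3:**
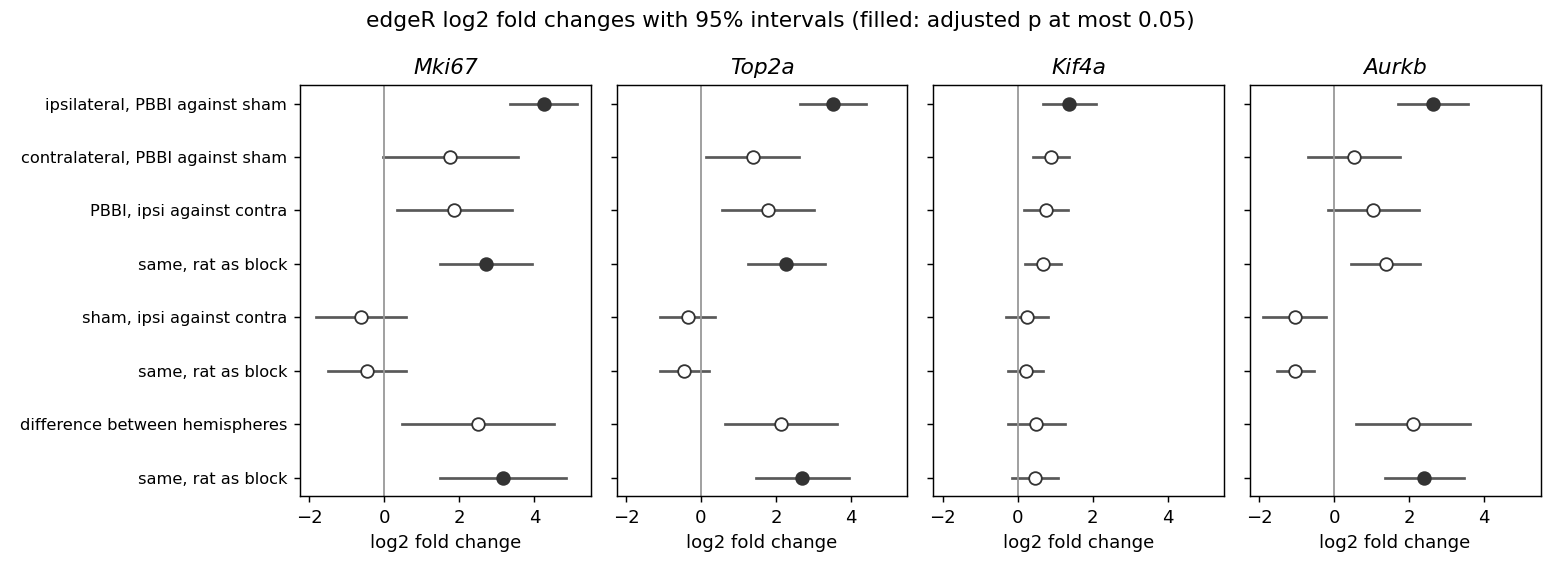
edgeR log2 fold changes (horizontal axis) of the 4 genes with 95% intervals in each comparison, for hemisphere comparisons with and without the rat as replicate block, filled where the adjusted p is at most 0.05. All 4 genes are filled in the ipsilateral comparison and none in the contralateral one, and Mki67, Top2a and Aurkb are filled for the difference between hemispheres with the block.

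The other genes of mitosis were taken from a list of 98 in 9 classes, of which 83 had a name in these data and 15 could not be looked up. In ipsilateral cortex 63 of the 83 were called higher by edgeR, 20 were not called and 0 were called lower. Their median log2 fold change was 2.05, against -0.02 over all genes tested. E2f8 was at or under 3 counts in every ipsilateral sham sample. With those samples set to 3 counts its log2 fold change was 3.36 in place of 5.10. Both values lie above the median, so the median could not change. Because names come from the study's own ipsilateral calls, this share is not independent evidence of the direction. The count fell to 40 without sham rat 91 and to 25 when the libraries with other title forms were left out. It rose to 78 without PBBI rat 85, and to 81 by DESeq2, by limma voom and in the fit of all 22 samples.

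Among mitotic kinesins, the motors that separate spindle poles and position chromosomes, 9 of 9 were called higher, from Kif14 (log2 fold change 3.63 ± 0.77, SE, edgeR adjusted p = 0.02) to Kif23 (1.34 ± 0.34, edgeR adjusted p = 0.0418). Kif14 rested on few reads, 0 to 6 counts in sham and 3 to 90 in PBBI. Among the kinetochore and centromere genes 16 of 19 were called, with Cenpu highest (3.66 ± 0.50, edgeR adjusted p = 0.00257) and Spdl1 lowest at 0.95 ± 0.28, which was not called (edgeR adjusted p = 0.0747). Spindle and cytokinesis genes were called in 13 of 15, from Troap (3.24 ± 0.63, edgeR adjusted p = 0.0142) to Arhgap11a (1.25 ± 0.32, edgeR adjusted p = 0.0462).

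Among mitotic cyclins and kinases 8 of 12 were called. Cdk1, the kinase that drives entry into mitosis, was highest at 3.39 ± 0.48 (SE, edgeR adjusted p = 0.00296), and Plk4, which controls centriole duplication, was lowest at 0.92 ± 0.31 and not called (edgeR adjusted p = 0.124). Of the spindle checkpoint genes 5 of 7 were called, with Bub1b at 3.07 ± 0.41 (edgeR adjusted p = 0.0025) and Ttk at 1.02 ± 0.28 (edgeR adjusted p = 0.0647). Of 7 anaphase genes 6 were called, with the ubiquitin-conjugating enzyme Ube2c at 3.34 ± 0.47 (edgeR adjusted p = 0.00283) and the anaphase inhibitor Fbxo5 at 0.96 ± 0.29 (edgeR adjusted p = 0.0917).

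The chromosomal passenger partners of Aurkb differed from Aurkb in size. Cdca8, which encodes borealin, was called (1.76 ± 0.30, edgeR adjusted p = 0.00689), whereas the scaffold Incenp was at 0.92 ± 0.27 (edgeR adjusted p = 0.0818), and 1 of 3 partners was called in all. Of 5 condensin and chromosome structure genes 2 were called, the highest value, that of Ncapg (1.91 ± 0.61, edgeR adjusted p = 0.107), not among them. The lowest was Smc4 at 0.92 ± 0.33 (edgeR adjusted p = 0.156). Of the transcription regulators of mitotic genes 3 of 6 were called. E2f8, an atypical E2F repressor, had 0 to 2 counts in the 5 sham samples and 1 to 68 in PBBI, and Mybl1 was lowest at 0.71 ± 0.25 (edgeR adjusted p = 0.136).

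In contralateral cortex 79 of the 83 genes were tested and none was called by edgeR. The log2 fold change was above 0 in 77 and below 0 in 2 (Spc24 and Ncaph, at -0.02 and -0.20), with a median of 0.60 against -0.01 over all genes. Of these genes 18 were higher at an unadjusted edgeR p under 0.05, as were 1.28% of all genes tested. How far the median rests on rats 81 and 88 was not tested. The summed CPM of every one of the 9 classes was highest in rat 81 among contralateral PBBI samples. Between the hemispheres of PBBI rats 19 of 83 were called higher ipsilaterally by edgeR (10 without rat 83 and 0 without rat 88, 90 or 96), and 59 with the replicate block. Of all genes tested, 2.97% and 6.68% were called higher in these fits. The list counts use the ipsilateral PBBI samples behind the study's calls, so they are not independent of the naming either. The block count fell to 38, 7, 3 and 9 without rats 81, 88, 90 and 96. In sham rats 77 were tested, none was called, and the median log2 difference between hemispheres was 0.05.

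**Figure D4:**
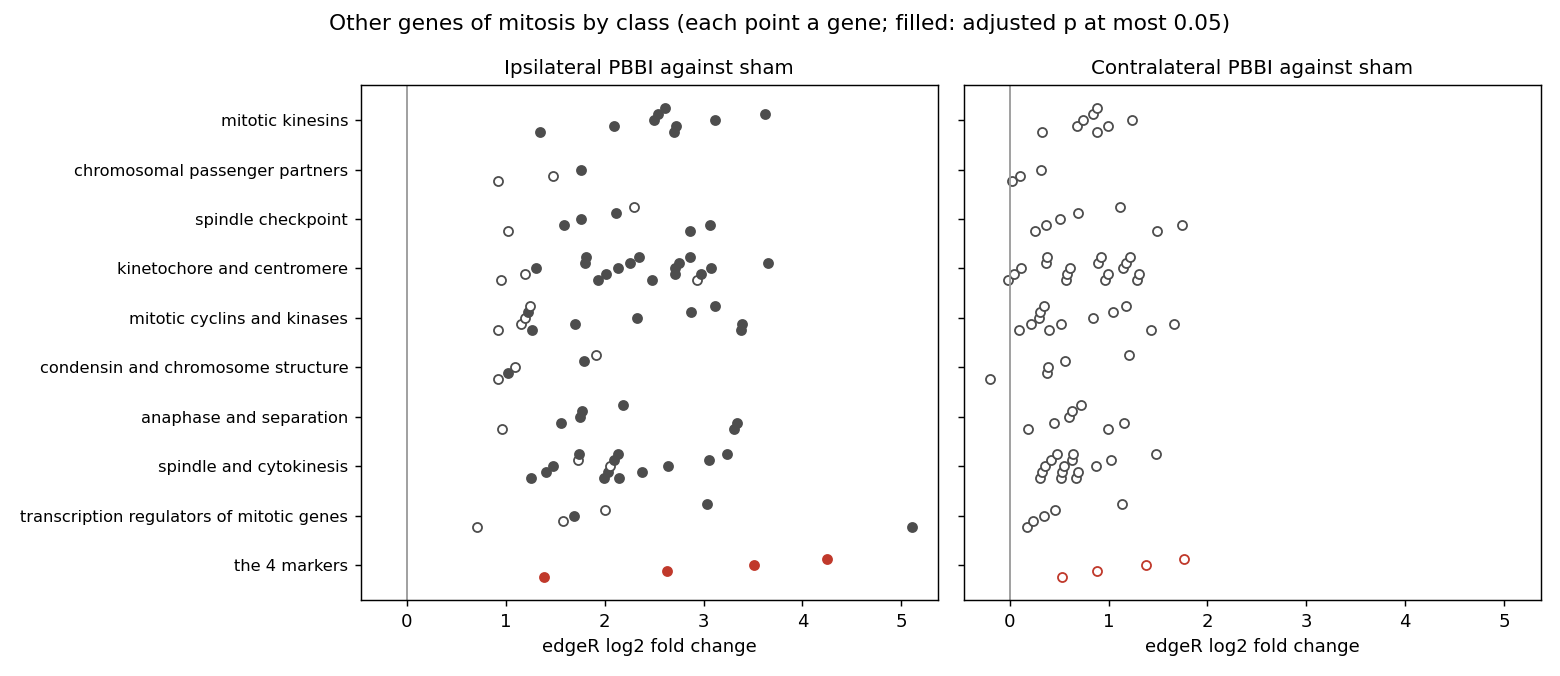
edgeR log2 fold change of PBBI against sham (horizontal axis) for each tested gene of 9 classes of mitosis genes (grey) and for the 4 markers (red), in ipsilateral and contralateral cortex, filled where the adjusted p is at most 0.05. All ipsilateral points lie above 0, 63 of the 83 grey points are filled there, and no contralateral point is filled.

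The genes whose pattern was most like each member were found by the root mean square difference, in log2 units, of log2 CPM over the 22 samples, each gene centred on its own mean, among 14621 genes. The nearest to Top2a were Cdk1 (0.444), Kif11 (0.454), Mastl (0.515), Fam64a (0.530) and Knstrn (0.531). The nearest to Kif4a were Brca1 (0.322), Ncapg2 (0.342), Kif23 (0.347), Ddias (0.347) and Skap2 (0.349). Apart from Skap2, an adaptor protein of immune cells, these are known from cell division or DNA repair.

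The lists of the other members also held genes not known for a part in mitosis. The nearest to Aurkb were Kif20a (0.454), Prc1 (0.60), Ssc5d (0.611), Myo1f (0.616) and Cdc6 (0.618). Mki67 was nearest to Cenpf (0.736) and Pbk (0.779), then to Lgals3 (0.805), Msr1 (0.812) and Gpnmb (0.830), genes well known from activated macrophages. Centred on the group means instead, which leaves only differences among rats of a group, Mki67 was nearest to Cenpf (0.595), Troap (0.618), Ndc80 (0.642) and Kif18b (0.657). Among the members themselves Mki67 and Top2a were closest (0.647) and Mki67 and Kif4a farthest apart (1.48). These distances share the libraries and the group differences and are a description of these samples.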

How the data were processed

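Total RNA from cortex of 6 PBBI and 5 sham rats, both hemispheres of each, was sequenced after ribosomal RNA depletion as stranded, paired-end libraries. The authors aligned reads with STAR 2.4.2a and summed them per gene of the Ensembl annotation of Rnor 6.0 (featureCounts 1.4.3-p1). The deposited values are raw counts, with each gene's length in bases. How strand, read pairs and multiply aligned reads were counted is not given in the sources used here. Low counts (1 to 19) were even in 60.8% to 69.6% of cases, depending on the sample. Samples were grouped by the labels, and the number in a label is the animal.

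The members and gene lists were chosen with earlier results of these data known. Counts were tested over all genes with the quasi-likelihood test of edgeR 4.0.16 (R 4.3.3, TMM, filterByExpr, Benjamini-Hochberg adjusted p of at most 0.05), each hemisphere separately, each treatment between hemispheres, and as an interaction. SE is the log2 fold change divided by the square root of F, and log2 CPM used a prior count of 2. Exact permutation tests were run on log2 CPM. The hemispheres of a rat were paired by the animal number in the labels. Their deviations from the group means correlated at 0.246 to 0.758 in 11 rats. Correlations between different rats were not set beside these, so the range does not test the pairing. Alternatives were DESeq2 1.42.0, limma 3.58.1 voom, other filters and scaling, all samples together, and halved counts. Further ones were other title forms left out, each rat left out, and the replicate block. Fits were also run on simulated counts drawn without a shared effect of the rat. That run therefore cannot test the pairing or the gain from the block. In each mitosis class the highest and lowest ipsilateral fold change are named, with the 5 nearest genes of each member at a mean CPM of at least 0.5. Genes named beyond this rule include Spc24 and Ncaph, which were chosen after their values were seen. Ndc80 and Kif18b, near Mki67 when centred on group means, and the single marker genes given with values are also outside it. Counting error alone limits levels of a few counts. The p-values of PBBI against sham in each hemisphere measure the spread between these rats. Those of the block fits and of tests on within-rat differences measure the spread of these differences. Fits over both hemispheres without a block treat both samples of a rat as independent and ignore the pairing. Operations were done in weekly groups, and which rats shared a week was not used here.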

Additional observations from a re-analysis of the deposited data

Results flagged for a closer look

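For 3 of the 4 genes the difference between the hemispheres of a rat was flagged for its low exact permutation p, PBBI against sham. The p-values given here are therefore the rule of choice and not added support. Kif4a was not flagged (log2 difference larger in PBBI by 0.47, exact permutation p = 0.0887). The edgeR interaction without a block called none of the 4 (edgeR adjusted p = 0.324, 0.224, 0.806 and 0.257 for Mki67, Top2a, Kif4a and Aurkb). The mean within-rat difference in log2 CPM, ipsilateral minus contralateral, was larger in PBBI than in sham by 2.98 for Mki67 (two-sided exact permutation p = 0.013), by 2.70 for Top2a (exact permutation p = 0.00649) and by 2.39 for Aurkb (exact permutation p = 0.00433). The direction was positive in 6 of 6 PBBI rats for each gene, as for 10.7% of the 15973 genes tested. It was negative in 5 of 5 sham rats for Aurkb, as for 2.27% of 15747 genes. For Aurkb the sham rats themselves thus add to the difference. With the rat as replicate block edgeR called Mki67, Top2a and Aurkb, but each call was lost when certain single rats were left out. All these tests use the ipsilateral PBBI samples behind the study's calls, so they are not independent of the naming. Over 16 combinations of gene and group, no single sample passed Dixon's 95% limit. Mki67 in contralateral PBBI rat 81 and Kif4a in ipsilateral PBBI rat 96 came closest (ratios 0.613 and 0.615). The ratio compares an end sample with its nearest neighbour, so it cannot show samples that are high together. For contralateral Aurkb it was 0.134, although rats 88 and 81 were at 6.59 and 5.85 CPM. The other PBBI rats were at 1.08 to 1.19 CPM there.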

How the results depend on the processing

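In ipsilateral cortex 3 or 4 of the 4 members were called under all 8 alternative settings and when each library was left out in turn (range 3 to 4), Kif4a being the one lost. In contralateral cortex and between the hemispheres of sham rats 0 were called under any setting or left-out library. Between the hemispheres of PBBI rats 0 were called by the test without a block and with each rat left out. DESeq2 called 2, limma voom with sample weights 4, the fit of all 22 samples 1 and the paired fit with the replicate block 2. For the difference between hemispheres the test without a block called 0, and so did the fits without each rat, while limma voom called 3 and the fit with the replicate block 3. Leaving each rat out of the paired fits, which was chosen after seeing the data, gave 0 to 4 members called between the hemispheres of PBBI rats and 0 to 3 for the interaction. The replicate block changed no call in sham rats. No log2 fold change of a member turned its direction under any setting, and the cause of the lost calls was not tested. Mki67 could not be tested contralaterally, between sham hemispheres or for the interaction with at least 10 counts in every sample. Depth limits Mki67 in sham cortex, where 4 to 72 counts lie behind each value.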
